A study of Mus musculus with 12 samples.

Results

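10 imprinted genes that regulate growth were taken by symbol from a gene-level RNA-seq table of 3T3 cells, and 6 of the 10 were measured. They are the protein-coding genes Dlk1, Mest, Peg3, Plagl1, Ndn and Grb10. The table has 32544 rows, of which 14279 were expressed highly enough to be tested, the 6 genes among them. The noncoding RNAs H19, Meg3, Rian and Mirg were not matched by symbol or by the older names looked for, and were not analysed here. The genes were matched by name, and no measured value enters the rule.

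The study exposed 3T3 cells, an established mouse fibroblast line, to extracellular vesicles (EVs) for 24 h, and sequenced the fibroblasts' poly(A) RNA with a directional library kit. The vesicles came from MDA-MB-468, a human triple-negative breast cancer cell line, in one of 3 forms. Control vesicles (shCon) came from the control line of the knockdown, knockdown vesicles (shCr) from cells with CRIPTO knocked down, and CrOE vesicles from cells that overexpress CRIPTO. CRIPTO is a membrane-anchored co-receptor of the Nodal branch of TGF-beta signalling. Other 3T3 cells were left untreated. Each of the 4 groups has 3 libraries. No group carries vesicles from unmodified MDA-MB-468 cells, and an overexpression control is not named, so the shCon vesicles are the vesicle control for both modified lines. The labels do not say that replicates came from separate cultures, so the p-values measure the spread between these libraries, which may be technical. The columns used for the CrOE libraries are headed with the name of the gene alone, and were assigned to that group because the other headings match the other 3 groups.

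Imprinted genes are transcribed mainly from the copy inherited from one parent, because DNA methylation set in the egg or the sperm marks one allele and is kept in somatic cells. Many act on fetal growth, with paternally expressed genes often promoting growth and maternally expressed genes often restraining it, although several break that pattern. Many are highly expressed in the embryo and placenta and decline after birth, and cultured embryonic fibroblasts keep expression of a number of them. The counts sum both alleles, so they give the amount of RNA and not its parent of origin, and DNA methylation was not measured.

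4 start regions are shown, of 3 members that were lower and 1 that was higher with CrOE vesicles. Whether these windows hold the imprinting marks of their genes was not examined. Each is given 5′ to 3′ on the gene's strand, from the RefSeq promoter table of mouse build GRCm38.p6, and all 6 measured genes matched an entry. Capitals mark the hexamer TGCCGC or its reverse complement GCGGCA, searched on both strands, which the zinc finger protein ZFP57 recognises in methylated imprinting control regions. Of 32851 upstream windows of 250 bases in the table, 8.68% hold a match, and the median window has 6 CG pairs. The Dlk1 stretch is chr12:109452573-109452822 on the plus strand, with 8 CG pairs. The Mest stretch is chr6:30737800-30738049 on the plus strand, the start of 3 with the most CG pairs, 14, and it holds 2 matches. The Peg3 stretch is chr7:6730432-6730577 on the minus strand, 146 bases from 158 to 13 upstream of the Peg3 start that lie in no annotated exon, with 5 CG pairs. The Grb10 stretch is chr11:12037421-12037670 on the minus strand, the start of 2 with the most CG pairs, 40, while Dlk1 had 1 start.
Dlk1: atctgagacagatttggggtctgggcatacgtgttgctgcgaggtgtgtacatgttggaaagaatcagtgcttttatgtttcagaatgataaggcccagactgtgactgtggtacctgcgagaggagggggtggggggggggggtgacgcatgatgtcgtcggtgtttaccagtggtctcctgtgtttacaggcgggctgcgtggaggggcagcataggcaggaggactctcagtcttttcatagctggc
Mest: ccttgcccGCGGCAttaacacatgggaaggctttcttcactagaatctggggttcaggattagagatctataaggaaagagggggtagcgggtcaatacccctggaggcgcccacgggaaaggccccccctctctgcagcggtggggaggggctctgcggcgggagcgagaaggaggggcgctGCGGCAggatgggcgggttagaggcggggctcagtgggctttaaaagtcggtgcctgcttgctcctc
Peg3: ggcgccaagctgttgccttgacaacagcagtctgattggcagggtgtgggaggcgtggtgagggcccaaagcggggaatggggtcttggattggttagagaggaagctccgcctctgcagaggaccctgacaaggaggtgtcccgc
Grb10: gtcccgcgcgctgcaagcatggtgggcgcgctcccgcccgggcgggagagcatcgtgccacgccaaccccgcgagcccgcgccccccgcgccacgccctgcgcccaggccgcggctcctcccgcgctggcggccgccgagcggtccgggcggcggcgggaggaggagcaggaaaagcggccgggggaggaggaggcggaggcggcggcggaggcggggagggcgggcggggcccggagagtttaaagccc
The Grb10 stretch has 5 times as many CG pairs as that of Dlk1, and among the 4 only that of Mest has a capital hexamer. The full 250-base window of Plagl1 also holds 1 match. A match describes the letters of the window and was not tested for binding.

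The libraries held between 25960054 and 37774020 estimated counts. Log2 CPM, counts scaled to a common library total, correlated across genes at 0.986 to 0.994 between replicates. The CrOE libraries stood apart, at 0.900 to 0.921 with libraries of the other groups, against 0.974 to 0.991 across those 3 groups. CRIPTO was changed in the human donor cells, so the mouse gene Tdgf1, with 0 to 3 counts in every library, does not check the labels. Fibroblast markers were present in every group, but their summed level was 4643 to 4810 CPM with CrOE vesicles against 11369 to 16850 in the other libraries, and all 8 were lower than in untreated cells. The fibroblast marker Lum had a single count in 1 CrOE library and was otherwise at 0 there. Leukocyte markers summed to 48.9 to 59.5 CPM in untreated cells, 82.1 to 92.8 with shCon, 129.5 to 193 with shCr and 4.71 to 6.34 with CrOE vesicles. In the first 3 of these groups most of the sum was Lyz2, at means of 46.9, 78.0, 146 and 1.25 CPM over the 4 groups, while Cd68 averaged 5.64, 5.595, 5.56 and 3.05 CPM, and 1 of 4 tested leukocyte markers was called higher with shCon and with shCr vesicles. Adipocyte markers summed to 34.4 to 40.4, 19.65 to 20.04, 19.4 to 25.2 and 3.77 to 4.27 CPM in the same order, with Lep at 0 in every library. Epithelial markers, with Epcam at 0 in every library, summed to 2.44 to 3.52 CPM with CrOE vesicles against 1.00 to 1.95 in the other libraries. Cldn4 averaged 1.15 CPM with CrOE vesicles and 0 in untreated cells, and Krt18 averaged 0.849 against 0.346 CPM. Krt19 went the other way, at 0.621 against 0.942 CPM. Of 3 tested epithelial markers, 2 were called higher and 0 lower with CrOE vesicles than in untreated cells. Endothelial markers summed to 2.25 to 2.56 against 0.589 to 1.59 CPM. Tek averaged 1.18 CPM with CrOE vesicles and 0.223 in untreated cells. Kdr averaged 0.136, 0.559, 0.764 and 0.403 CPM in untreated, shCon, shCr and CrOE groups. All 3 tested endothelial markers were called higher with CrOE vesicles than in untreated cells, and 2 higher and 1 lower than with shCr vesicles. Neural markers, with Sox10 at 0, summed to 20.5 to 23.1 CPM with CrOE vesicles against 8.67 to 14.9 CPM. Most of the neural sum with CrOE vesicles was Tubb3, at a mean of 20.9 CPM against 7.49 CPM in untreated cells. Syt1, the other tested neural marker, averaged 0.295 CPM with CrOE vesicles against 5.99 CPM in untreated cells. Of these 2 tested neural markers, 1 was called higher and 1 lower with CrOE vesicles than in untreated cells. Muscle markers summed to 0.666 to 0.870 CPM with CrOE vesicles against 1.00 to 2.05 CPM. The part of these shifts in the results below was not tested.

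With CrOE vesicles, 4 of the 6 imprinted genes fell and 2 rose against untreated cells. Peg3, Dlk1, Ndn and Mest were 7.06, 6.22, 2.33 and 1.97-fold lower, and Plagl1 and Grb10 were 4.02 and 1.73-fold higher. A gene was called changed at an adjusted p under 0.05 by the quasi-likelihood test of edgeR, adjusted over all tested genes by the Benjamini-Hochberg method. In that comparison 73.7% of all tested genes were called, 36.7% higher and 37.0% lower. The same 4 genes were lower and the same 2 higher against shCon vesicles, where 72.6% of genes were called, 36.5% higher and 36.1% lower. They were so against shCr vesicles too, where 73.9% were called, 36.9% higher and 37.0% lower. These 3 comparisons share the CrOE libraries. In bulk RNA, fewer cells of a type and less RNA per cell cannot be told apart.

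With shCon vesicles, 3 of the 6 genes were called against untreated cells, Mest and Plagl1 higher and Dlk1 lower, beside 38.1% of all tested genes, 18.0% higher and 20.2% lower. With shCr vesicles 4 were called, the same 3 in the same directions and Grb10 lower, beside 37.3%, 18.4% higher and 18.8% lower. Between shCr and shCon vesicles 4 of 6 were called, Mest, Ndn and Dlk1 higher and Grb10 lower, where 8.73% of all tested genes were, 5.22% higher and 3.51% lower. The shCr comparisons share their libraries as well. The median log2 fold change of the 6 genes was 0.06 with shCon and 0.06 with shCr vesicles, −1.10 with CrOE vesicles and 0.31 between shCr and shCon. The same medians over all tested genes were between 0.0043 and 0.020.

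**Figure D1:**
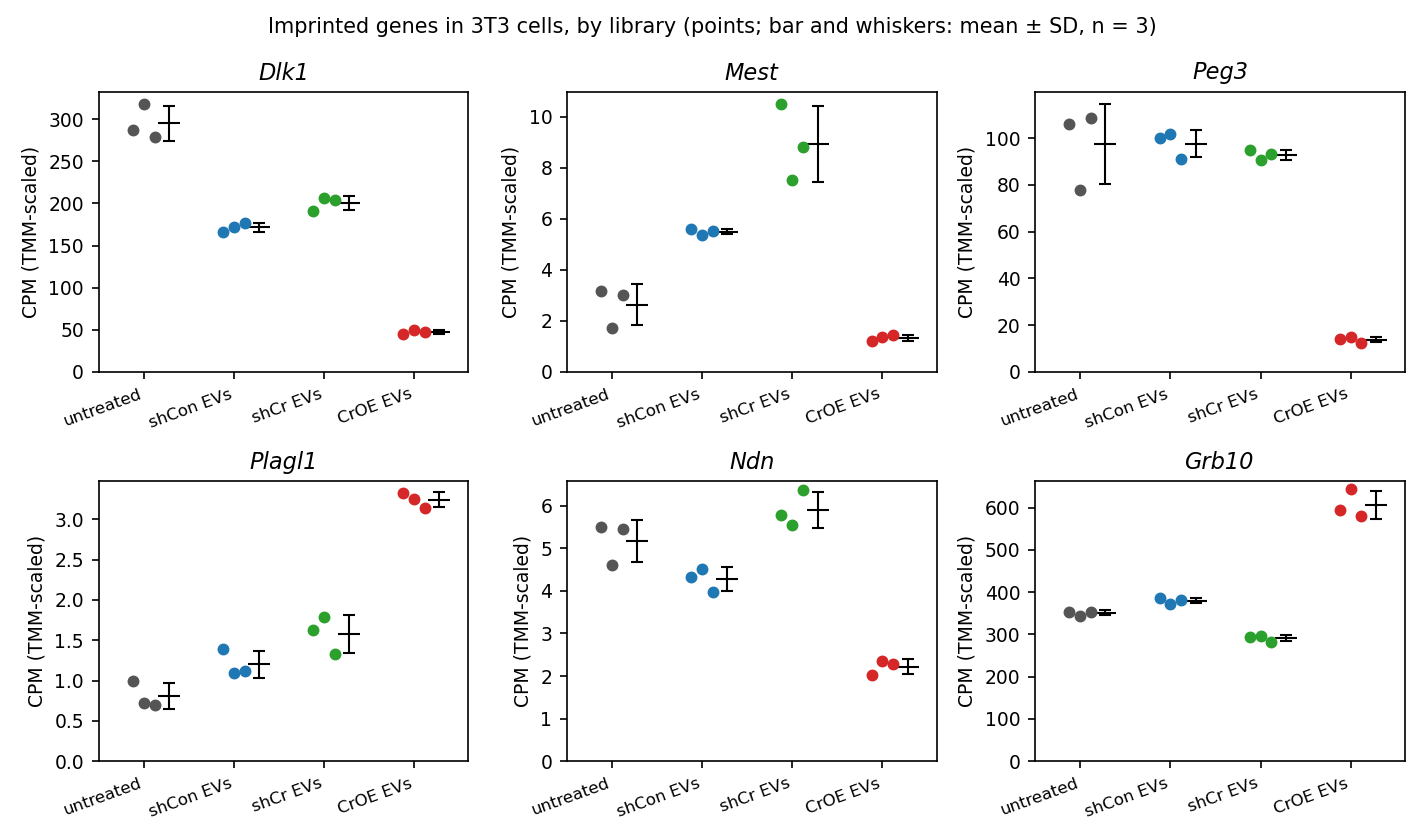
TMM-scaled CPM (linear axes from 0) of each imprinted gene in the 12 libraries, by group; points are libraries, and the bar with whiskers is the mean ± SD of 3. The mean of the CrOE libraries is the lowest for Dlk1, Peg3, Mest and Ndn and the highest for Plagl1 and Grb10. In the CrOE comparisons 72.6% to 73.9% of all tested genes were called, and how many have libraries that separate fully by group was not counted.

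Dlk1 encodes a transmembrane protein with EGF-like repeats, related to Notch ligands, that restrains adipocyte differentiation and is widely used as a marker of preadipocytes. Its level was 288, 319 and 278 CPM in the untreated libraries and 166, 173 and 176 CPM with shCon vesicles. With shCr vesicles it was 191, 206 and 204 CPM, and with CrOE vesicles 44.4, 50.1 and 47.7 CPM. The group means ran, from high to low, in the order untreated, shCr, shCon and CrOE. Dlk1 fell 1.72-fold with shCon vesicles (log2 fold change −0.78, SE 0.06, edgeR adjusted p = 9.96e-07) and 1.47-fold with shCr vesicles (−0.56, SE 0.06, edgeR adjusted p = 1.75e-05). With CrOE vesicles it fell 6.22-fold (−2.64, SE 0.07, edgeR adjusted p = 2.04e-12), and 5.51% of tested genes had a lower log2 fold change. It was 3.62-fold lower with CrOE than with shCon vesicles. The difference between shCr and shCon vesicles was small, 1.17-fold higher with shCr (0.22, SE 0.06, edgeR adjusted p = 0.0442). That call was lost without any 1 of the 3 shCon libraries, at adjusted p = 0.102 to 0.188, and without shCr library 2 (0.118) or 3 (0.0924).

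Mest encodes a protein of the endoplasmic reticulum with an alpha/beta-hydrolase fold, and its loss from the paternal allele restricts growth in mice. It was a low gene in these cells, with 38 to 332 counts per library. Its level was 3.19, 1.72 and 3.02 CPM in untreated cells, and 5.58, 5.38 and 5.51 CPM with shCon vesicles. The shCr libraries had 10.5, 7.53 and 8.80 CPM, and with CrOE vesicles 1.21, 1.37 and 1.43 CPM. The group means ran, from high to low, in the order shCr, shCon, untreated and CrOE. Mest was thus on opposite sides of the untreated cells with the 2 kinds of modified vesicle. Mest rose 2.07-fold with shCon vesicles (log2 fold change 1.05, SE 0.19, edgeR adjusted p = 0.000907) and 3.37-fold with shCr vesicles (1.75, SE 0.19, edgeR adjusted p = 1.07e-05). Its log2 fold change with shCr vesicles was above that of 99.1% of tested genes. With CrOE vesicles it was 1.97-fold lower than in untreated cells (−0.98, SE 0.22, edgeR adjusted p = 0.00127), and 6.66-fold lower than with shCr vesicles. Compared with shCon vesicles, Mest was 1.63-fold higher with shCr (0.70, SE 0.17, edgeR adjusted p = 0.0244), a call lost without any 1 of the shCon libraries, at adjusted p = 0.0825 to 0.0979.

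Mest lies on chromosome 6 and overlaps Copg2, a coat protein gene on the opposite strand. In the GENCODE M21 annotation 21.96% of the 31-base stretches of Mest's exons also occur in other genes, mainly Copg2, and whether strand was used in counting is not given in the sources used here. All 12 deposited values of Mest were more than 0.01 away from a whole number, against 0 of 12 for Dlk1 and Ndn. Copg2 averaged 64.9 CPM in untreated cells, 62.6 with shCon and 63.7 with shCr vesicles, with log2 fold changes of −0.05 and −0.03 that were not called. With CrOE vesicles Copg2 averaged 39.7 CPM and was lower (log2 fold change −0.71). The Mest values are therefore uncertain in level. No change in Copg2 was called with shCon or shCr vesicles, where Mest was higher than in untreated cells. With CrOE vesicles both genes were lower than in untreated cells. Whether reads shared with Copg2 contribute to any of the Mest differences was not tested.

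Peg3 encodes a zinc finger protein, and its loss from the paternal allele reduces growth and alters maternal behaviour in mice. Its level was 106, 77.7 and 109 CPM in untreated cells and 100.2, 102 and 91.0 CPM with shCon vesicles. With shCr vesicles it was 94.96, 90.7 and 93.1 CPM, and with CrOE vesicles 14.1, 14.8 and 12.5 CPM. The first 3 groups overlapped one another, and only the CrOE libraries were low. No difference was called with shCon vesicles (log2 fold change 0.0020, 95% interval −0.24 to 0.25, edgeR adjusted p = 0.991) or with shCr vesicles (−0.07, interval −0.31 to 0.18, adjusted p = 0.647). None was called between shCr and shCon vesicles (−0.07, interval −0.32 to 0.17, edgeR adjusted p = 0.753). These intervals use the 8 residual degrees of freedom, fewer than the edgeR test uses, so they are somewhat wider than that test implies. Untreated library 2 was the lowest of those 9 libraries, and without it Peg3 was called lower with shCr vesicles (−0.21, edgeR adjusted p = 0.033). With CrOE vesicles Peg3 fell 7.06-fold (−2.82, SE 0.12, edgeR adjusted p = 1.84e-10), the largest fall among the 6 genes. It was 7.07-fold lower than with shCon and 6.73-fold lower than with shCr vesicles.

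Usp29, a deubiquitinase gene that lies next to Peg3, is transcribed away from it and is also paternally expressed, was close to detection. It averaged 1.14, 1.25, 1.31 and 0.757 CPM in untreated, shCon, shCr and CrOE groups. With CrOE vesicles its log2 fold change was −0.58 against untreated cells (edgeR adjusted p = 0.0591, no call), −0.72 against shCon (0.0229) and −0.79 against shCr vesicles (0.0123). The difference from untreated cells was called with the replicate number as a block (0.0235), with at least 10 counts required in every library (0.0423) and without CrOE library 3 (0.0287). The call against shCon was lost without shCon library 1 (adjusted p = 0.0901), shCon library 3 (0.0515) or CrOE library 2 (0.0954). The call against shCr was lost without shCr library 3 (adjusted p = 0.0633) or CrOE library 2 (0.0562). Whether Peg3 and Usp29 differ in their change was not tested, and 16.1% of the 31-base stretches of Usp29 also occur in other genes, mainly Zim3 on the opposite strand.

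Plagl1, also known as Zac1, encodes a zinc finger transcription factor that restrains cell proliferation and regulates other imprinted genes. It was the lowest of the 6, with 19 to 112 counts per library. Its level was 0.989, 0.724 and 0.699 CPM in untreated cells, and 1.40, 1.10 and 1.12 CPM with shCon vesicles. The values with shCr were 1.62, 1.79 and 1.33 CPM, and with CrOE vesicles 3.33, 3.26 and 3.14 CPM. The order was CrOE, shCr, shCon and untreated, and the shCr and shCon libraries overlapped. Plagl1 rose 4.02-fold with CrOE vesicles (log2 fold change 2.01, SE 0.18, edgeR adjusted p = 4.55e-07), a log2 fold change above that of 97.2% of tested genes. It rose 1.95-fold with shCr vesicles (0.96, SE 0.20, edgeR adjusted p = 0.00179). The 1.49-fold rise with shCon vesicles (0.58, SE 0.20, edgeR adjusted p = 0.0416) was not stable. It was lost without untreated library 2 or 3 (adjusted p = 0.103 and 0.14) and without any 1 of the shCon libraries (0.0564 to 0.158). The difference between shCr and shCon vesicles was not called (0.39, SE 0.18, edgeR adjusted p = 0.236).

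Ndn encodes necdin, a MAGE-family protein that binds E2F1 and p53 and suppresses growth, and lies in the region whose loss causes Prader-Willi syndrome in humans. Its level was 5.49, 4.61 and 5.44 CPM in untreated cells and 4.33, 4.52 and 3.96 CPM with shCon vesicles. It stood with shCr vesicles at 5.78, 5.54 and 6.36 CPM, and with CrOE vesicles 2.03, 2.36 and 2.27 CPM. The group means ran, from high to low, in the order shCr, untreated, shCon and CrOE. Neither vesicle group beside the untreated cells in that order was called different from them. The log2 fold change was −0.28 with shCon vesicles (SE 0.11, edgeR adjusted p = 0.0659) and 0.19 with shCr vesicles (SE 0.11, edgeR adjusted p = 0.2). Without untreated library 2 the shCon difference was called (−0.35, edgeR adjusted p = 0.0303). With CrOE vesicles Ndn fell 2.33-fold (−1.22, SE 0.12, edgeR adjusted p = 7.08e-07). Compared with shCon vesicles, Ndn was 1.38-fold higher with shCr (0.47, SE 0.11, edgeR adjusted p = 0.0192). That call was lost without shCon library 1 (adjusted p = 0.0649), shCon library 3 (0.0917) or shCr library 3 (0.0633).

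Grb10 encodes an adaptor protein that binds the insulin and IGF1 receptors and dampens their signalling. It is expressed from the maternal allele in most tissues, including embryonic fibroblasts, and from the paternal allele in neurons. Its level was 354, 344 and 354 CPM in untreated cells and 386, 373 and 382 CPM with shCon vesicles. With shCr vesicles it was 294, 297 and 283 CPM, and with CrOE vesicles 594, 645 and 581 CPM. The group means ran, from high to low, in the order CrOE, shCon, untreated and shCr. Grb10 rose 1.73-fold with CrOE vesicles (log2 fold change 0.79, SE 0.05, edgeR adjusted p = 1.07e-08). It was 1.20-fold lower with shCr vesicles (−0.27, SE 0.05, edgeR adjusted p = 0.000925), while the 1.08-fold difference with shCon vesicles was not called (0.12, SE 0.05, edgeR adjusted p = 0.0848). Between shCr and shCon vesicles Grb10 was 1.31-fold lower with shCr (−0.38, SE 0.05, edgeR adjusted p = 0.000447), and 6.27% of tested genes had a lower log2 fold change. Of the 4 calls between shCr and shCon vesicles, that of Grb10 was the one that held in every alternative tried.

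**Figure D2:**
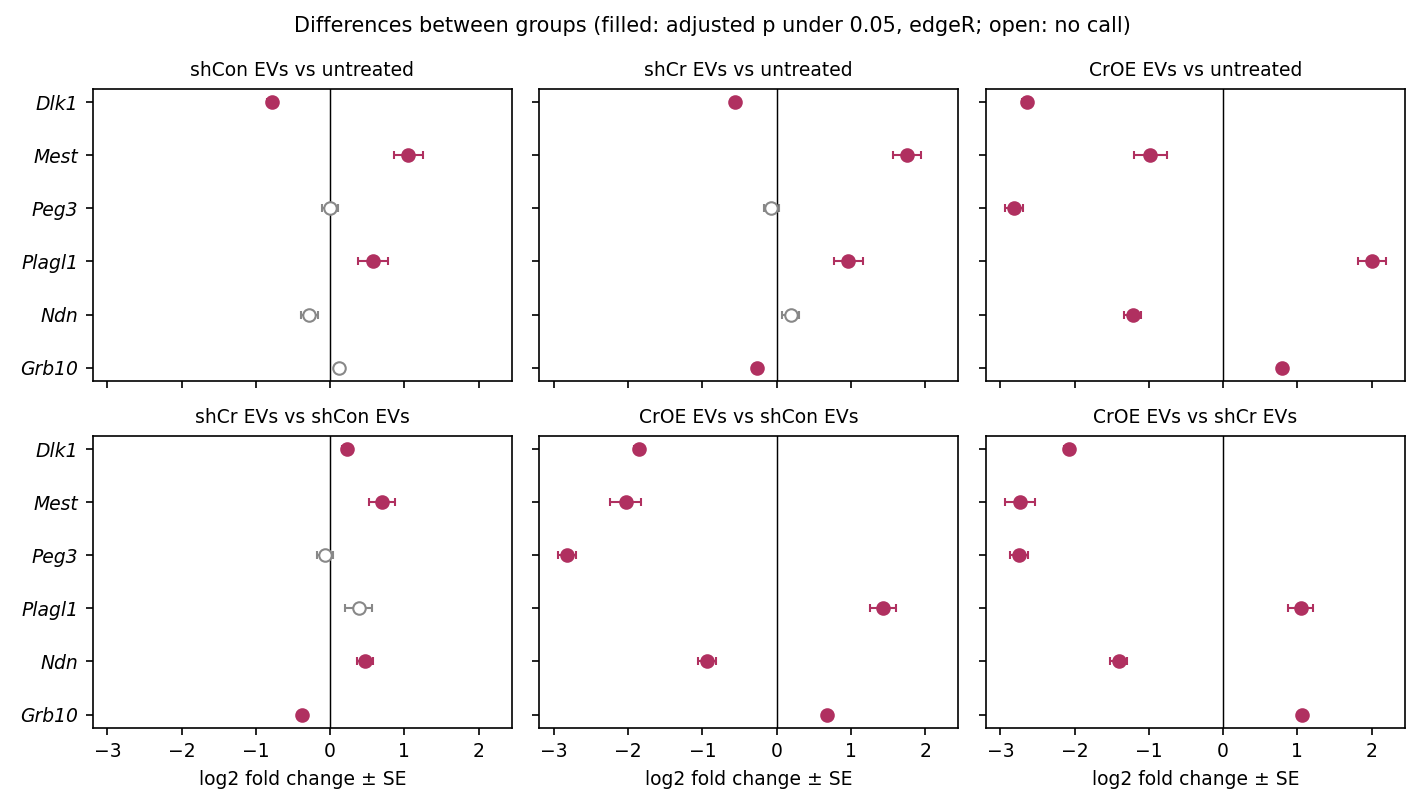
Log2 fold change ± SE of the 6 imprinted genes in the 6 comparisons; filled points have an edgeR adjusted p under 0.05 and open points do not. All 6 points are filled in the 3 comparisons of CrOE vesicles, and the shCr against shCon panel has Mest, Ndn and Dlk1 above 0 and Grb10 below it.

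Levels of different genes were compared per kb of merged exon, as CPM per kb of the GENCODE M21 gene model. In untreated cells the order of these levels was Dlk1 52.1, Grb10 38.6, Peg3 7.31, Ndn 1.40, Mest 0.669 and Plagl1 0.103. With CrOE vesicles it was Grb10 66.7, Dlk1 8.38, Peg3 1.04, Ndn 0.601, Plagl1 0.415 and Mest 0.338. Dlk1 and Grb10 had thus exchanged the first place, and Mest and Plagl1 the last. With shCr vesicles Mest stood at 2.27 CPM per kb, above Ndn at 1.60. The annotated length need not match the transcript in these cells, so this order is approximate.

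The 6 genes also differed in how they followed the vesicle source. Dlk1 was below the untreated level with all 3 vesicle types, and Plagl1 above it with all 3. Mest was above it with shCon and shCr vesicles and below it with CrOE vesicles. Grb10 was above it with CrOE and below it with shCr vesicles. Peg3 and Ndn were called different from untreated cells only with CrOE vesicles. Whether the effects of the vesicle types differ was tested directly between those types, as given for each gene above.

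**Figure D3:**
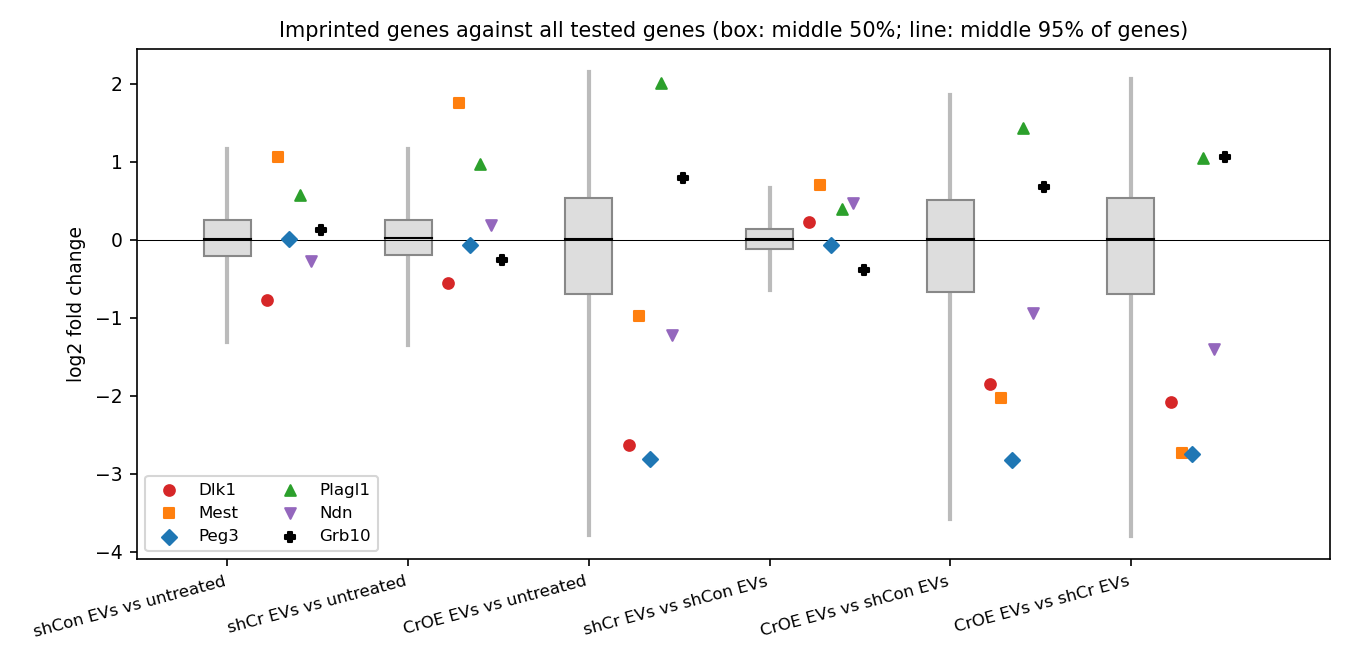
Log2 fold changes of the 6 imprinted genes (points) over the spread of all tested genes in each comparison; boxes hold the middle 50% of genes and lines the middle 95%. In the CrOE comparisons the middle 95% of genes runs from about −3.79 to 2.14 against untreated cells and all 6 imprinted genes lie inside it, while Mest lies above it in the shCr comparisons with untreated cells and with shCon vesicles.

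Grb10 had the highest mean CPM of the 6 genes, and the genes most like it in pattern were found by Pearson's r of log2 CPM across the 12 libraries among 11564 genes. They were Pdlim1 (r = 0.994), a LIM-domain protein of the actin cytoskeleton, Cdh2 (0.989), which encodes N-cadherin, and Ece2 (0.988), an endothelin-converting enzyme. Pdlim1 averaged 34.9, 37.5, 28.1 and 73.3 CPM in untreated, shCon, shCr and CrOE groups. The likeness is a description, since 301 genes (2.60%) reached r = 0.95 and the CrOE libraries stand apart across the transcriptome.

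Of 68 other imprinted genes listed, 59 had a row and 39 were tested. With CrOE vesicles 10 rose and 22 fell against untreated cells, a share of 82.1% called beside 73.7% of all genes, with a median log2 fold change of −0.46 beside 0.0078. That median does not depend on the fitted value of Dio3, whose bound, given below, lies under it. With shCon vesicles 4 rose and 12 fell (41.0% called beside 38.1% of all genes, median −0.06). With shCr vesicles 6 rose and 8 fell (35.9% beside 37.3%, median −0.04). Between shCr and shCon vesicles 4 were higher and 1 lower with shCr (12.8% beside 8.73%, median 0.06). Against shCon vesicles CrOE vesicles had 8 higher and 25 lower (84.6% beside 72.6%). Against shCr vesicles they had 8 higher and 24 lower (82.1% beside 73.9%). The shares of all tested genes in each direction are given above with the 6 genes. The list was described by its counts and was not tested as a set.

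Igf2, the paternally expressed fetal growth factor, was among the largest falls in every comparison with untreated cells. Its level was 48.5, 43.8 and 54.6 CPM in untreated cells, 14.9, 16.5 and 13.04 with shCon vesicles, and 17.9, 15.2 and 15.1 with shCr vesicles. With CrOE vesicles it was 1.17, 1.60 and 1.99 CPM. The mean was highest in untreated cells and lowest with CrOE vesicles, and the shCon and shCr libraries overlapped. Igf2 fell 3.31-fold with shCon vesicles (log2 fold change −1.72, edgeR adjusted p = 4.69e-07), 3.05-fold with shCr vesicles (−1.61, edgeR adjusted p = 7.22e-07) and 30.5-fold with CrOE vesicles (−4.93, edgeR adjusted p = 1.78e-11). Its values are uncertain, because 63.1% of its 31-base stretches also occur in other genes, mainly the overlapping Gm49394 on the same strand. Igf2r, the receptor that clears IGF2 and is maternally expressed, rose with all 3 vesicle types, by log2 fold changes of 0.56, 0.50 and 0.30 for shCon, shCr and CrOE.

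The neighbours of Dlk1 on chromosome 12 were low, and were singled out after their values were seen. Rtl1, a retrotransposon-derived gene needed in the placenta, was 0.769, 1.64 and 0.589 CPM in untreated cells and 0.222, 0.0582 and 0.168 CPM with CrOE vesicles, which is 2 to 7 counts per library. It fell with CrOE vesicles (log2 fold change −2.72, SE 0.51, edgeR adjusted p = 0.000347). Begain averaged 2.66 CPM in untreated cells and 0.767 with CrOE vesicles, and it fell too (−1.79, edgeR adjusted p = 0.000347). Dio3, the deiodinase that inactivates thyroid hormone, averaged 1.41 CPM in untreated cells, 0.447 with shCon and 0.905 with shCr vesicles. It had 0 counts in all 3 CrOE libraries. Against a floor of 3 counts per library it was at least 15.9-fold lower with CrOE vesicles than in untreated cells, 5.03-fold lower than with shCon and 10.2-fold lower than with shCr vesicles. Dio3 was also called lower with shCon vesicles (−1.66, edgeR adjusted p = 0.00116), but not with shCr vesicles (−0.65, edgeR adjusted p = 0.0771, and 0.0469 without shCr library 1). All 3 tested neighbours were called lower with CrOE vesicles against untreated cells, where 37.0% of all tested genes were. Rtl1 and Dio3 passed the expression filter only through the groups where they were higher, so a call with CrOE vesicles could hardly be other than lower. The count is therefore partly fixed by the filter, and no conclusion is drawn from it.

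Peg10, a retrotransposon-derived gene needed for placental development, differed between shCon and shCr vesicles. It was 41.1, 31.4 and 49.1 CPM in untreated cells, 20.6, 18.4 and 18.4 with shCon, 43.2, 38.0 and 32.5 with shCr and 11.01, 8.32 and 8.40 with CrOE vesicles. The shCr libraries overlapped the untreated ones, and the shCon mean was below both of their means. Peg10 fell 2.12-fold with shCon vesicles (log2 fold change −1.09, SE 0.16, edgeR adjusted p = 0.000157) and was 1.98-fold higher with shCr than with shCon vesicles (0.99, SE 0.16, edgeR adjusted p = 0.00187). With shCr vesicles it was not called against untreated cells (−0.10, edgeR adjusted p = 0.641).

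Several other genes listed as imprinted passed the rule for naming, without a measure of their imprinting in these cells. Dcn, which encodes the matrix proteoglycan decorin, fell by 3.44 on the log2 scale with CrOE vesicles, from a mean of 545.9 to 50.3 CPM. Dhcr7, the last enzyme of cholesterol synthesis, averaged 141, 193, 242 and 18.5 CPM in untreated, shCon, shCr and CrOE groups. It rose 1.71-fold with shCr vesicles and was 10.4-fold and 13.1-fold lower with CrOE than with shCon and shCr vesicles. Slc38a4, an amino acid transporter, averaged 124, 60.5, 68.2 and 16.9 CPM in the same order, a 1.83-fold fall with shCr vesicles. Its mean was lower still with shCon and CrOE vesicles. Herc3, a ubiquitin ligase gene, rose 1.72-fold with shCon and 2.00-fold with shCr vesicles. Its mean was 8.41 CPM in untreated cells and 5.12 with CrOE vesicles. H13, which encodes signal peptide peptidase, rose 2.84-fold with CrOE vesicles, from a mean of 153 to 434 CPM, and Blcap rose 1.77-fold. H13 and Blcap are regulated by neighbouring imprinted transcripts, and 8.20% of the 31-base stretches of H13 also occur in other genes. Tssc4, which overlaps Trpm5 on the opposite strand, was 2.11-fold higher with CrOE than with shCon vesicles, and Peg12 2.23-fold higher than with shCr vesicles. Between shCr and shCon vesicles, Dcn was 1.34-fold higher and Tnfrsf23 1.16-fold lower with shCr. Both calls were lost without any 1 of the shCon libraries, at adjusted p = 0.0893 to 0.14 for Dcn and 0.0592 to 0.111 for Tnfrsf23. The Dcn call was also lost without shCr library 1 (0.061), and its log2 value fell from 0.43 to 0.27. That of Tnfrsf23 was lost without shCr library 2 (0.0602), and 28.5% of its 31-base stretches also occur in other genes, mainly Tnfrsf22.

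**Figure D4:**
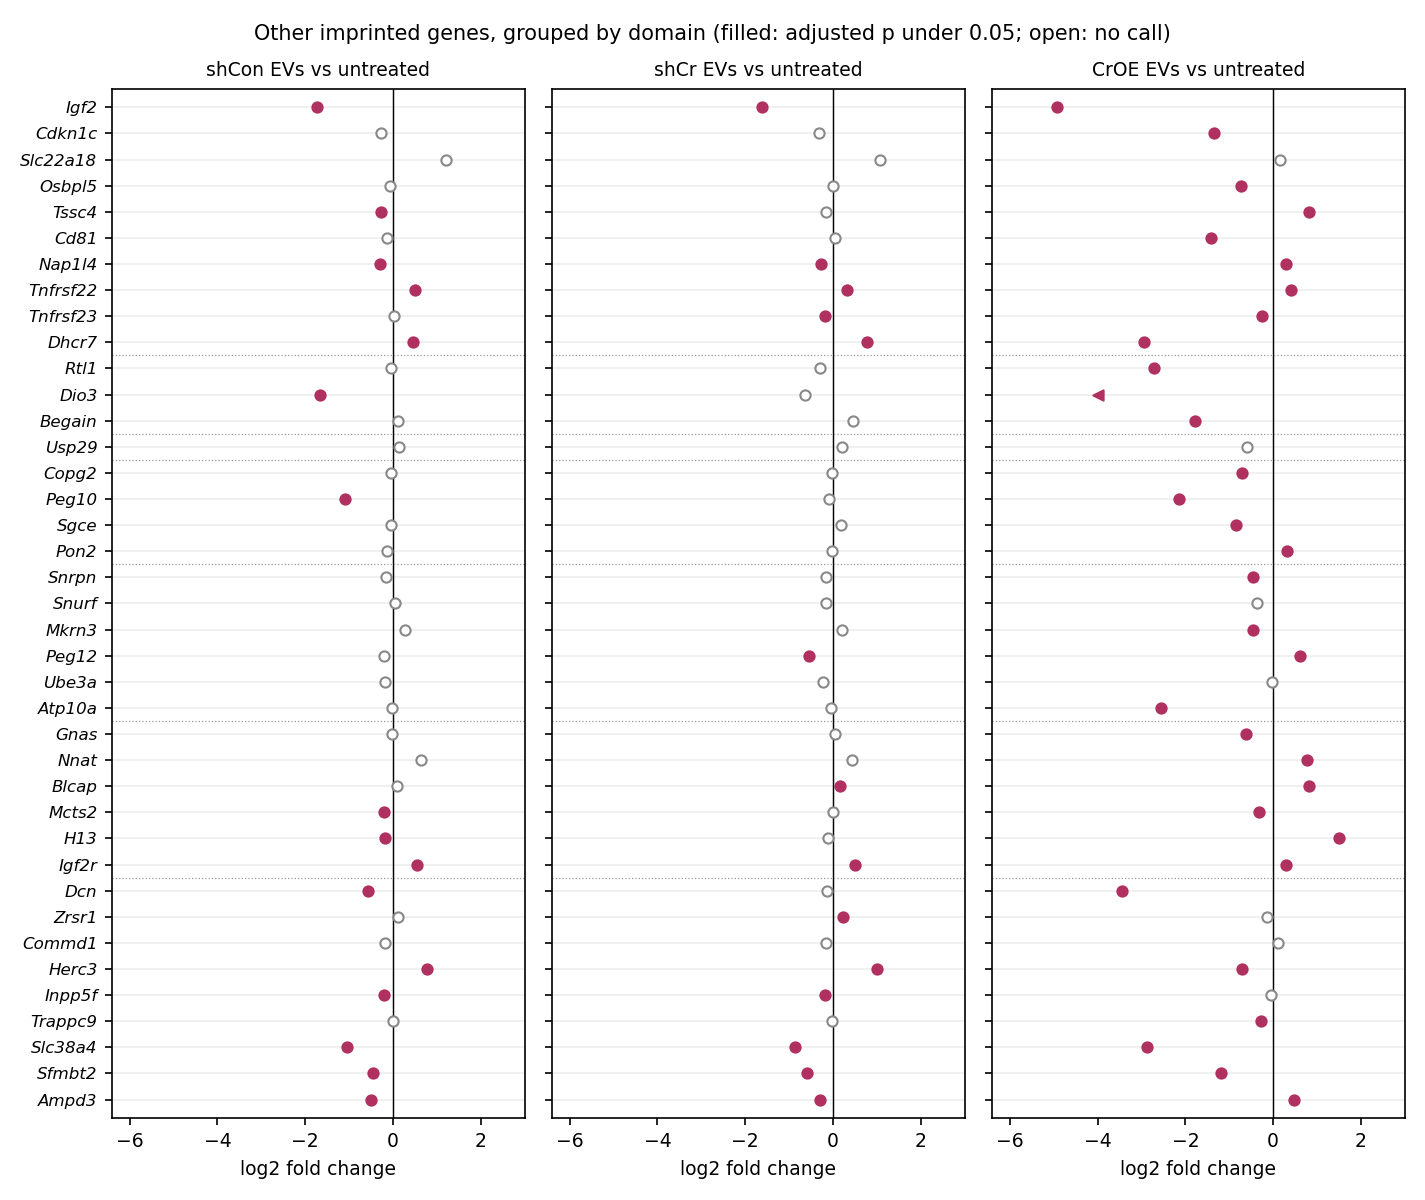
Log2 fold changes of the 39 other imprinted genes tested, grouped by chromosomal domain, for each vesicle group against untreated cells; filled points have an edgeR adjusted p under 0.05, and the arrow marks the lower bound for Dio3, which had 0 counts with CrOE vesicles. Igf2 at −4.93 is the lowest value drawn with CrOE vesicles, where that of Dio3 is only a bound. The 3 tested genes of the Dlk1-Dio3 domain all lie below 0 there, but Rtl1 and Dio3 passed the filter only through the other groups.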

How the data were processed

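Poly(A) RNA of 12 libraries of 3T3 cells was measured, 3 in each of 4 groups. The authors deposited a table of estimated counts per gene symbol, not scaled between libraries, of which 39.8% are not whole numbers. featureCounts and the mouse build mm39 are named, per the submitters' processing notes; the aligner, its settings, the annotation and the use of strand are not given in the sources used here. The plan had assumed whole counts, so the values were rounded. In R 4.3.3, edgeR 4.0.16 was run with TMM scaling, filterByExpr and one mean per group over all 12 libraries (glmQLFit, glmQLFTest), with a prior count of 2 for log2 CPM. Genes were called at an adjusted p under 0.05. The scripts were tested on simulated data. DESeq2 1.42.0, other scalings and filters, unrounded values, a replicate block, 2-group models, leaving out each library and, added after seeing the data, leaving out the CrOE group or the TMM scaling were alternatives. The members and lists were chosen with earlier results of these data known. Described were all members and, per comparison, at most 2 other imprinted genes in each direction, these only if their average log2 CPM reached 1. At most the 2 largest changes per comparison were described among factors of imprinting marks and among growth partners. Gene lengths and sharing of 31-base stretches came from GENCODE M21, another build than the counts.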

Additional observations from a re-analysis of the deposited data

How the results depend on the processing

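Under all alternatives together, the 6 members gave 522 values, of which 492 kept their direction and side of the threshold, 26 lost a call, 4 gained one and 0 reversed. In the 3 comparisons of CrOE vesicles all 6 members were called in each alternative. The calls between shCr and shCon vesicles were the least stable. There the number of members called was 1 to 4 when 1 library was left out, 2 with only the 2 groups compared and 2 without the CrOE group, against 4. The number of all genes called was 632 to 1396 when 1 library was left out and 641 with only the 2 groups, against 1247. Dlk1 was lost with median-of-ratios scaling (adjusted p = 0.052), without the filter (0.0934), in the 2-group model (0.077) and without the CrOE group (0.0794). Mest was lost without the CrOE group (0.0519) and Ndn in the 2-group model (0.0592). The call of Plagl1 with shCon vesicles was lost with DESeq2 (0.0923), without the filter (0.0802), in the 2-group model (0.0731) and without the CrOE group (0.0738), and Grb10 was gained there in the 2-group model (0.0382) and with DESeq2 (0.05 after rounding). The cause was not tested. Among 25 other named genes, 2113 of 2162 values stayed, 36 were lost, 13 gained and 0 reversed. With the replicate number as a block, the members called were 3 with shCon, 4 with shCr and 6 with CrOE vesicles, and 4, 6 and 6 between vesicle types, as without it. The block gave 5691, 5529, 10657, 1281, 10511 and 10677 genes called in the same order. Over 18 pairs of libraries sharing a number, the correlation of their deviations ran from −0.20 to 0.32, and 5 pairs were over 0.1. Of 12 libraries, 1 correlated best with its own number in every other group. With 3 libraries per group, this cannot tell whether libraries of the same number were handled together. No scaling moved the median of all genes by more than 0.1. Low counts limit Plagl1, Mest, Rtl1, Dio3 and Usp29.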

Other observations

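Of 20 listed factors of imprinting marks, 19 were tested against untreated cells. The list also holds genes that set DNA methylation, such as Dnmt3a and Dnmt3b, and the Tet genes, which act in its removal. With shCon vesicles 1 rose and 7 fell, 42.1% called beside 38.1% of all tested genes. With shCr vesicles 2 rose and 7 fell, 47.4% beside 37.3%, and with CrOE vesicles 12 rose and 4 fell, 84.2% beside 73.7%. These shares, of both directions together, lie near those of all genes. The directions with CrOE vesicles were uneven, where 36.7% of all tested genes rose and 37.0% fell. Against shCon vesicles 13 factors were higher and 2 lower with CrOE vesicles (78.9% beside 72.6%). The counts against shCr vesicles were the same (78.9% beside 73.9%). The factors were not tested as a set, and the counts mix opposite functions. Tet1 and Tet2 averaged 2.52 and 30.1 CPM with shCon vesicles and 1.59 and 17.7 CPM with CrOE vesicles. Tet3 went the other way, from 59.9 to 84.1 CPM. Uhrf1, which guides the maintenance methyltransferase to replicated DNA, averaged 37.9 ± 3.03 CPM in untreated cells (SD, n = 3). It averaged 12.7 ± 0.590 with shCon, 10.9 ± 0.811 with shCr and 19.7 ± 0.863 with CrOE vesicles, all below the untreated mean. With shCon and shCr vesicles its log2 fold changes were −1.58 and −1.80 (edgeR adjusted p = 2.43e-08 and 6.67e-09). Hells, a chromatin remodeller needed for DNA methylation, averaged 23.5, 10.4, 8.52 and 31.5 CPM in the same order. It fell by 1.17 and 1.46 on the log2 scale with shCon and shCr vesicles, and was 3.03-fold and 3.71-fold higher with CrOE than with those vesicles. Between shCr and shCon vesicles 1 factor, Hells, was called (−0.29, edgeR adjusted p = 0.0486), and the call was lost without any 1 of the shCon libraries (0.0999 to 0.145) or without shCr library 2 (0.143) or 3 (0.122). It was also lost with the replicate block (0.0555), without the filter (0.0728), in the 2-group model (0.146) and without the CrOE group (0.0848). Dnmt3l, a cofactor of de novo methylation in germ cells that overlaps Aire on the opposite strand, was 0.507 CPM in untreated cells and 4.36 with CrOE vesicles, an 8.53-fold rise (edgeR adjusted p = 6.4e-07). Zfp57, whose hexamer is marked in the sequences above, rose 2.86-fold with CrOE vesicles (edgeR adjusted p = 0.000392), from 41.0, 73.3 and 47.6 to 156, 119 and 187 CPM.

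Of 8 genes that work with the members in growth control, 2 rose and 1 fell with shCon and with shCr vesicles, 37.5% beside 38.1% and 37.3% of all tested genes. With CrOE vesicles 4 rose and 3 fell, 87.5% beside 73.7%. Between shCr and shCon vesicles edgeR called 0 of 8, beside 8.73% of all tested genes, and 1 of them, Trp53, had an unadjusted p under 0.05 (0.0228, edgeR adjusted p = 0.141, DESeq2 adjusted p = 0.0923). Irs1, an adaptor that carries insulin and IGF1 receptor signals, averaged 53.5 CPM in untreated cells, 106.7 with shCon, 99.1 with shCr and 15.1 with CrOE vesicles. It rose 2.00-fold and 1.85-fold with shCon and shCr vesicles and fell 3.54-fold with CrOE vesicles. In its annotation 30.7% of its 31-base stretches also occur in another gene. Irs2 rose 1.23-fold with shCon and 1.28-fold with shCr vesicles. Trp53, the tumour suppressor p53, was 1.99-fold and 2.29-fold higher with CrOE than with shCon and shCr vesicles. Siah1a rose 1.89-fold with CrOE vesicles, and 39.5% of its 31-base stretches are shared, mainly with Siah1b.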
